A study of Mus musculus with 6 samples.

Results

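Vegfa and Edn1 encode a pair of secreted factors that act on blood vessels, vascular endothelial growth factor A and endothelin 1. They are 2 of the 923 genes in the ileum table. The pair was chosen by name, and also selected on the measured contrast itself, because both are known targets of hypoxia-inducible factors (HIF) and their levels differed in opposite directions between the groups. Their fold changes are therefore given as a description, without a test. The study asked how HIF-1α overexpression in the intestinal epithelium changes ileum gene expression, by sequencing polyadenylated RNA of whole ileum. The overexpression group was 3 Hif1α LSL/LSL;VilERcre mice, in which a tamoxifen-activated Cre driven by the villin promoter removes a stop cassette in front of a HIF-1α transgene of the LSL-HIF1 dPA line. The flox control group was 3 Hif1α LSL/LSL littermates that carry the same allele without Cre. Both groups were on a C57BL/6 background, received tamoxifen and held 2 males (replicates 1 and 2) and 1 female (replicate 3) by the sample labels, although the text of the study calls these mice male. The study kept mice of these genotypes on chow, on a high-fructose diet or on a high-fat high-fructose diet. The sources used here do not say which diet, or what age, the sequenced mice had.

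The table lists only genes with an unadjusted p under 0.05 in the authors' own test, so the differences of all genes in it lean large and genes outside it were not analysed here. Levels are given as normalized counts, which are fragments counted per gene divided by a size factor for the library, and as FPKM, fragments scaled by gene length and library total, where genes are compared. Library totals behind the FPKM values ran from 18918341 to 24905343 fragments and the size factors from 0.86 to 1.14. Fabp6, the bile acid binding protein of ileal enterocytes, was at 33689 to 44735 normalized counts in flox and 36234 to 66850 in overexpression libraries. Anpep, a brush border peptidase, was at 127405 to 153611 in flox and 111350 to 121630 in overexpression libraries. The other 7 genes of the 9 in the enterocyte list, and all 9 of the general epithelium list, are not in the table. In whole ileum, fewer cells of a type and less RNA per cell cannot be told apart.

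VEGF-A is a dimeric growth factor that binds the receptors Flt1 and Kdr on endothelial cells, where it drives vessel growth and permeability. Its gene is one of the classical HIF targets, switched on where oxygen is low. Endothelin 1 is a short peptide cut from a longer precursor, and it constricts vessels through the receptors Ednra and Ednrb on smooth muscle and other cells. Its gene has also been described as a HIF target in endothelial cells, and it answers to GATA and AP-1 transcription factors.

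Vegfa (ENSMUSG00000023951) lies on the minus strand of chromosome 17 of GRCm38 from 46016993 to 46032369, with 8 separate exonic blocks of 4285 bases in all and 13 annotated transcripts, 8 of them protein coding. Edn1 (ENSMUSG00000021367) lies on the plus strand of chromosome 13 from 42301476 to 42307990, with 5 exons of 2139 bases in 1 transcript. No 150-base window of either gene's transcripts occurs in a transcript of another gene. The antisense gene Gm47118 overlaps Edn1 and shares 35 exonic bases with it, so if strand was not used in counting, which the sources used here do not give, a few of its fragments could be counted with Edn1. No other annotated gene overlaps Vegfa. The windows around their start sites are shown because both genes are known HIF targets with opposite differences here. Each window runs from 250 bases before to 50 bases after the RefSeq start site (GRCm38.p6, strand of the gene), at chr13:42301226-42301525 for Edn1 and chr17:46032328-46032627 for Vegfa. Capitals mark matches, on either strand, to the HIF core letters ACGTG and GCGTG and to the GATA letters AGATAA.
Edn1: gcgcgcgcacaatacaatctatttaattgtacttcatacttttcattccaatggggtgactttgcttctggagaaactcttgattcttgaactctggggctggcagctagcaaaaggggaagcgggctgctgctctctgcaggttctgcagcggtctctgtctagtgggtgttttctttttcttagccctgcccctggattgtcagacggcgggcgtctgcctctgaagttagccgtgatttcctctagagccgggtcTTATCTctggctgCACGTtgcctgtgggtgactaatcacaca
Vegfa: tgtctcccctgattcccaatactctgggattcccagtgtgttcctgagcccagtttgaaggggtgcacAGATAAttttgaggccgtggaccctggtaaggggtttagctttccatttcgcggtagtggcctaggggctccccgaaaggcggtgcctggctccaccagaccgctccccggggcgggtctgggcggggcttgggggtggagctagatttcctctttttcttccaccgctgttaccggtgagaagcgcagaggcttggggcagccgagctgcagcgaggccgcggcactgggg

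The Edn1 window held 1 match to ACGTG, read on the other strand as CACGT, which began 22 bases into the transcribed side of the start site. It also held 1 match to AGATAA, on the other strand as TTATCT, beginning at base 9 of that side. The Vegfa window held no match to ACGTG or GCGTG and 1 match to AGATAA at position -182. Neither of these windows had an exact match to the AP-1 letters TGANTCA. Near matches were not counted, such as tgactaa near the end of the Edn1 window, which differs by 1 letter. RefSeq gives Vegfa a second start inside the gene, and the window around it, at chr17:46025114-46025413, held 1 GCGTG at -218 and 1 ACGTG, on the other strand, at -211. Of 32851 promoter windows of this length, 19.6% held ACGTG, 32.4% GCGTG, 43.8% either of them, 11.2% AGATAA and 7.81% the AP-1 letters. The HIF core ACGTG and its reverse share 4 letters in the palindrome CACGTG, which counts as a match on both strands. These matches describe letters only and are not binding sites measured in these mice. Sequence outside the windows was not searched, so a window without a match does not show that the gene lacks one.

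Vegfa was expressed at a moderate level in every library and stood higher in all 3 overexpression mice than in any control. In flox replicates 1, 2 and 3 it was counted at 1796, 2128 and 2421 fragments, or 1771, 1870 and 2278 normalized counts. In overexpression replicates 1, 2 and 3 it was counted at 3252, 2881 and 2670 fragments, or 3041, 3066 and 3112 normalized counts. The lowest overexpression library was thus above the highest flox library, which was the female control. Across all 785 genes tested, 75.5% had groups that did not overlap, since the table was filled by p, so this separation is nothing particular to Vegfa. The means were 1973 ± 269 (SD, n = 3) and 3073 ± 36.0 (SD, n = 3) normalized counts, a ratio of 1.56 and a log2 fold change of 0.64 with a standard error (SE) of 0.14. In absolute size, 451 of the 785 genes had a larger one.

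Edn1 was scarce, and its difference between the groups was carried by libraries that varied widely. In flox replicates 1, 2 and 3 it was counted at 72, 215 and 142 fragments, or 71.0, 188.9 and 133.6 normalized counts. In overexpression replicates 1, 2 and 3 it was counted at 57, 34 and 85 fragments, or 53.3, 36.2 and 99.1 normalized counts. The groups overlapped, because the female overexpression mouse lay above flox replicate 1, a male. The means were 131 ± 59.0 (SD, n = 3) and 62.9 ± 32.5 (SD, n = 3) normalized counts, a ratio of 0.479 and a log2 fold change of -1.07 (SE 0.46). Without flox replicate 2, the library with the highest Edn1, the log2 fold change was -0.71 (SE 0.49). Computed from mean FPKM it was -1.02 with 0.1 added to each mean and -0.70 with 1 added. The added 1 is large beside means of 2.79 in flox and 1.33 in overexpression libraries, and shrinks the value by arithmetic.

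**Figure D1:**
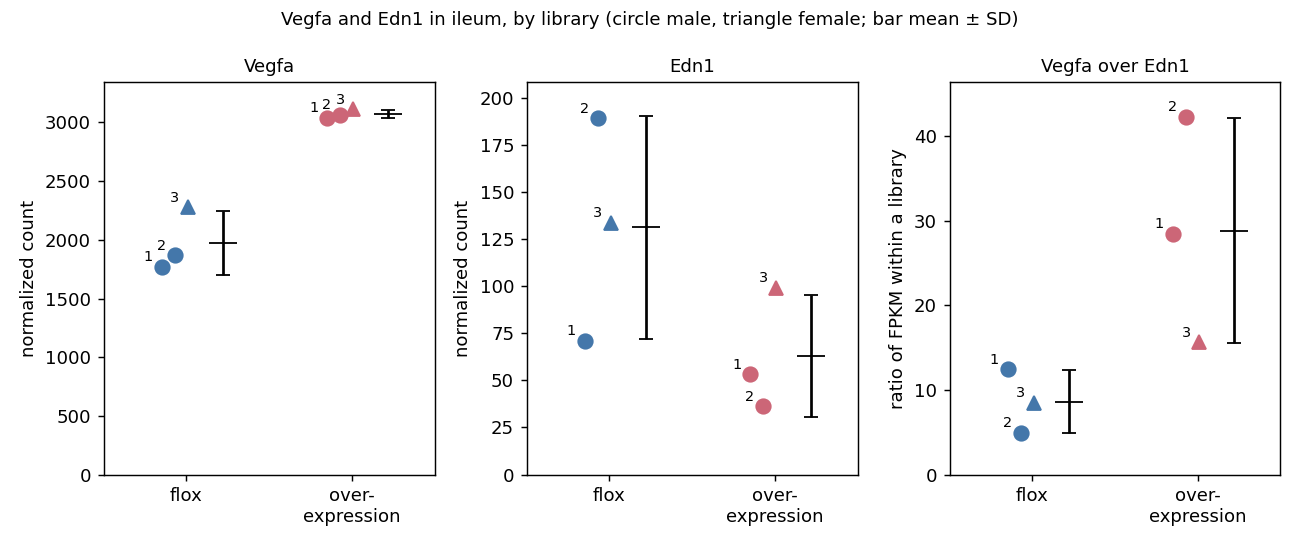
Normalized counts of Vegfa (left) and Edn1 (middle) and the Vegfa to Edn1 ratio of FPKM within a library (right), with 1 point per library labelled by its replicate number, circles for males, triangles for females and bars for the mean ± SD of 3 libraries. The 3 overexpression libraries sit together near 3073 for Vegfa, above the flox libraries, while for Edn1 they run from 36.2 to 99.1 and overlap the flox range of 71.0 to 188.9.

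Edn1 varied widely among mice of a group, and separate mice are bound to vary by more than counting error. Its coefficient of variation was 45.0% in flox and 51.7% in overexpression libraries, where counting alone would give 8.36% and 13.1%. The highest library held 2.66 times the lowest in flox controls and 2.74 times in overexpression mice. The exact 95% Poisson interval of the count was 56.3 to 90.7 fragments in flox replicate 1 and 187 to 246 in flox replicate 2, and these intervals did not overlap. Such intervals cover counting error only, and may be too narrow even for that, because PCR copies are not separate molecules. For Vegfa the coefficient of variation was 13.6% in flox libraries, against 2.17% from counting. In overexpression libraries it was 1.17%, below the 1.85% that counting would give. A spread taken from 3 libraries is a rough estimate, so this low value does not show that these mice varied so little. Over all libraries, the biological coefficient of variation that edgeR fitted was 14.6% for Vegfa and 40.6% for Edn1, with a median of 24.3% over the 785 genes.

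Per gene length, Vegfa transcripts were the more abundant of the pair in every library. Vegfa stood at 20.9 ± 2.97 FPKM (SD, n = 3) in flox and 32.4 ± 0.489 FPKM (SD, n = 3) in overexpression libraries, and Edn1 at 2.79 ± 1.27 and 1.33 ± 0.692 FPKM. The ratio of Vegfa to Edn1 FPKM does not depend on the scaling of the libraries. It was 12.4, 4.94 and 8.51 in flox replicates 1, 2 and 3 and 28.5, 42.3 and 15.7 in overexpression replicates 1, 2 and 3. The ratios of the groups did not overlap, with means of 8.63 ± 3.76 (SD, n = 3) and 28.8 ± 13.3 (SD, n = 3). The choice of the genes fixes this direction and favors the separation, while Edn1 by itself overlapped between the groups. Single genes of the table also had groups that did not overlap in 75.5% of the 785 tested.

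Sex was not used to choose the genes, and each group held 1 female, so a sex term was tested beside the group term. Vegfa had a log2 difference of 0.18 (SE 0.12) between females and males, female higher, and Edn1 one of 0.60 (SE 0.47), also female higher. Leaving out males moved the Edn1 value from 0.40 without overexpression replicate 2 to 1.04 without flox replicate 2. Neither passed edgeR's quasi-likelihood test with Benjamini-Hochberg adjustment over 785 genes (adjusted p = 0.703 and 0.741). For Edn1 the female was the highest of the 3 overexpression mice but the middle of the 3 flox controls, and for Vegfa the female was the highest in both groups. The test called 0 of the 785 genes (0%), with 80 at an unadjusted p under 0.05, and DESeq2 called 9 and limma 0. Because the females are replicate 3 in both groups, sex and that number cannot be told apart, and all of these genes were listed for a small p of the group difference.

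The differences between the groups were set side by side for each sex. In males, Vegfa was 1.68 times as high in overexpression as in flox mice (means of 2 each), and in the female pair 1.37 times. Edn1 was at 0.344 of the flox level in males and at 0.742 in the female pair. The male value averages mice that differed widely, with 71.0 and 188.9 normalized counts in the flox males and 53.3 and 36.2 in the overexpression males. Replicate 2 of the flox group and replicate 2 of the overexpression group, both males, held the highest and the lowest Edn1 levels of all 6 libraries. The interaction of group and sex was -0.30 (SE 0.23) for Vegfa and 1.10 (SE 0.95) for Edn1 on the log2 scale, with an adjusted p of 1 for both from edgeR's quasi-likelihood test. It called 0 of 785 genes (0%), with 16 at an unadjusted p under 0.05, and DESeq2 called 3 and limma 0.

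Genes that act with Vegfa and Edn1 were taken from 11 lists of ligands, receptors, processing enzymes, signaling and HIF genes. Beside these genes the lists hold 165 others, of which 17 are in the table, 13 higher and 4 lower in overexpression mice. None of the 17 passed edgeR's quasi-likelihood test in either direction with adjustment over 19204 genes, against 2.68% of the 785 tested genes that passed as higher and 0.127% as lower. At an unadjusted p under 0.05 the same test held 16 of the 17 (83.2% of all tested), DESeq2 called 3 of the 17 (9.3% of all tested) and limma 0 (2.68% of all tested). In 14 of the 17 the groups did not overlap, against the 75.5% of all tested genes. Their median log2 fold change was 0.63, against 0.34 over the 785 genes. The values below are therefore descriptions of genes that share the table with Vegfa and Edn1.

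Among receptors and other endothelial genes, Kdr, Tie1 and Esm1 had higher means in overexpression mice. Kdr, the main signaling receptor for VEGF-A and the only one of 5 VEGF receptor and coreceptor genes in the table, was at 480, 403 and 544 normalized counts in flox replicates 1, 2 and 3. In overexpression replicates 1, 2 and 3 it was at 966, 517 and 750. Overexpression replicate 2 lay below the highest flox library, and the log2 fold change was 0.65 (SE 0.23). Tie1, an endothelial receptor tyrosine kinase that works with the angiopoietin receptor Tek, had 314, 420 and 356 normalized counts in flox and 702, 407 and 464 in overexpression libraries. Its groups overlapped as well, and both genes were highest in overexpression replicate 1. Esm1, a proteoglycan secreted by endothelial cells and known to be induced by VEGF-A, was scarce at 47.3, 44.8 and 53.6 in flox and 99.1, 83.0 and 71.1 in overexpression libraries. Its groups did not overlap, with a log2 fold change of 0.80 (SE 0.34). Kdr and Tie1 are 2 of the 16 genes in the endothelial marker list, and their summed level was 794 to 900 normalized counts in flox and 924 to 1668 in overexpression libraries. Both were listed for a small p of this same contrast, which favors a difference in their sum, and each gene by itself overlapped. The sum therefore describes Kdr and Tie1 only and not the level of endothelial markers. The other 14, among them Pecam1, Cdh5 and Vwf, are not in the table, nor are any of 11 smooth muscle and pericyte or 5 lymphatic markers. The part of endothelial RNA in the Vegfa and Edn1 values was not tested.

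Of the 3 endothelin ligands, Edn1 and Edn3 are in the table and stood in opposite directions. Edn3, the ligand of Ednrb needed for the migration of enteric neuron precursors, was at 518, 702 and 665 normalized counts in flox replicates 1, 2 and 3 and at 1061, 937 and 902 in overexpression replicates 1, 2 and 3. Its groups did not overlap, and its log2 fold change was 0.62 (SE 0.16). Edn3 was also the more abundant of the pair per length, with mean FPKM of 6.95 in flox and 10.6 in overexpression libraries, against 2.79 and 1.33 for Edn1. Mme, the membrane peptidase neprilysin that degrades endothelins among other peptides, averaged 1441 ± 378 (SD, n = 3) in flox and 912 ± 196 (SD, n = 3) in overexpression libraries, a log2 fold change of -0.66 (SE 0.22). Its groups did not overlap. The receptors Ednra and Ednrb and the converting enzymes Ece1 and Ece2 are not in the table.

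Genes of vessel tone and growth other than receptors lay in both directions. Nos2, the inducible nitric oxide synthase, whose product relaxes vessels, averaged 851 ± 345 (SD, n = 3) normalized counts in flox and 1995 ± 188 (SD, n = 3) in overexpression libraries, a log2 fold change of 1.23 (SE 0.25). Ddah1, which breaks down an inhibitor of nitric oxide synthases, had a log2 fold change of 0.34 (SE 0.14). Ace, the angiotensin converting enzyme, had one of -0.39 (SE 0.16), and Ang, the secreted ribonuclease angiogenin, one of -0.50 (SE 0.17). In each of these 4 genes the groups did not overlap, as in 75.5% of the 785 tested genes. From the VEGF signaling list of 41 genes, the kinase gene Map2k1 is the only one in the table, with a log2 fold change of 0.42 (SE 0.12). From 21 transcription factors linked to Edn1 or Vegfa, Fos, a subunit of AP-1, is the only one in the table. It averaged 846 ± 179 (SD, n = 3) and 1312 ± 128 (SD, n = 3) normalized counts, a log2 fold change of 0.63 (SE 0.17).

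**Figure D2:**
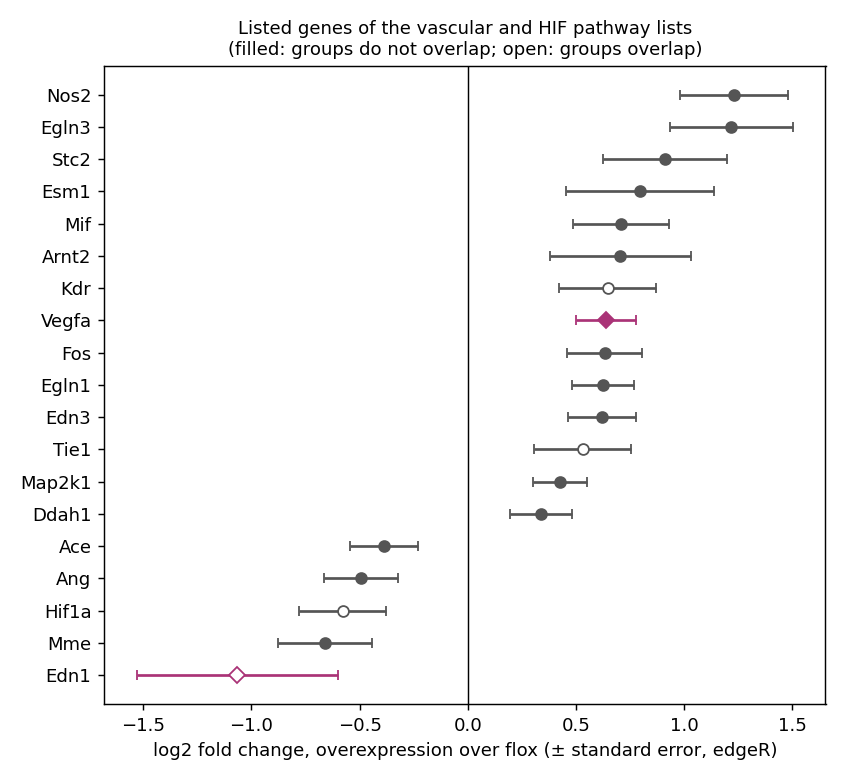
Log2 fold change of overexpression over flox mice (x axis, ± standard error from edgeR, 3 libraries against 3) for Vegfa, Edn1 (diamonds) and the 17 other genes of the lists that are in the table, with filled symbols where the groups did not overlap. Edn1 at -1.07 has the lowest value and the widest bar of the 19 genes, and Vegfa at 0.64 lies among Kdr, Fos, Egln1 and Edn3.

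Among 17 secreted products of HIF target genes, 4 are in the table, namely Vegfa, Edn1, Stc2 and Mif. Edn1 alone had a lower mean in overexpression mice, but Vegfa and Edn1 were chosen for their opposite directions. Only Stc2 and Mif were not chosen that way, and the genes of this list outside the table were not analysed here. Stc2, the secreted glycoprotein stanniocalcin 2, was at 153, 189 and 156 normalized counts in flox and 458, 262 and 217 in overexpression replicates 1, 2 and 3, a log2 fold change of 0.91 (SE 0.29). Mif, macrophage migration inhibitory factor, had a log2 fold change of 0.71 (SE 0.22), with 14.6% of its 150-base windows shared with the gene Gm10169, so its counts are uncertain. The groups did not overlap in either gene, as in 75.5% of the 785 tested genes. Adm, Angptl4, Pgf and Angpt2, other secreted factors in this list, are not in the table. Of 10 genes of the HIF pathway itself, Egln1 and Egln3, the prolyl hydroxylases that mark HIF for degradation, had log2 fold changes of 0.63 (SE 0.14) and 1.22 (SE 0.28). Arnt2, a partner subunit of HIF, had one of 0.71 (SE 0.33). Hif1a had one of -0.58 (SE 0.20) with overlapping groups, and the sources used here do not say whether transgene reads were counted there, so it does not check the labels.

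The profile of Vegfa over the 6 libraries was compared with those of 502 other genes of at least 50 normalized counts, by the root mean square difference of log2(normalized count + 1) after each gene's mean was subtracted. The 5 nearest were Hmga1b at 0.076, Egln1 at 0.085, Klf10 at 0.089, Kdm3a at 0.092 and Ulk3 at 0.10 on the log2 scale. Egln1 was at 977, 852 and 1131 normalized counts in flox and 1479, 1487 and 1603 in overexpression replicates 1, 2 and 3. Kdm3a, a histone demethylase gene known as a HIF target, was at 565, 716 and 806 in flox and 1053, 1022 and 1173 in overexpression libraries. Klf10 encodes a transcription factor induced by TGF-β, and Ulk3 a kinase. Hmga1b shares 69.5% of its 150-base windows with Hmga1, so its counts are uncertain.

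Genes near Edn1 were farther away. The 5 nearest were Olfr165 at 0.29, Reg3a at 0.36, Plscr2 at 0.36, Zrsr1 at 0.36 and Defb37 at 0.36 on the log2 scale. Reg3a, an antimicrobial lectin of the intestinal epithelium, was at 1136, 2085 and 1881 normalized counts in flox and 1116, 857 and 1441 in overexpression replicates 1, 2 and 3. It shared with Edn1 its lowest level in overexpression replicate 2 and its highest in flox replicate 2. Defb37, a beta-defensin, was at 202, 391 and 286 in flox and 137, 71.3 and 126 in overexpression libraries. Its lowest and highest levels lay in the same libraries as those of Edn1. Olfr165, an olfactory receptor gene, was at 116, 306 and 385 in flox and 105, 61.7 and 174 in overexpression libraries. Olfr165, Plscr2 and Zrsr1 were also lowest in overexpression replicate 2, but highest in flox replicate 3. All of these genes come from a table chosen on the same contrast, which brings their profiles closer to those of Vegfa and Edn1.

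**Figure D3:**
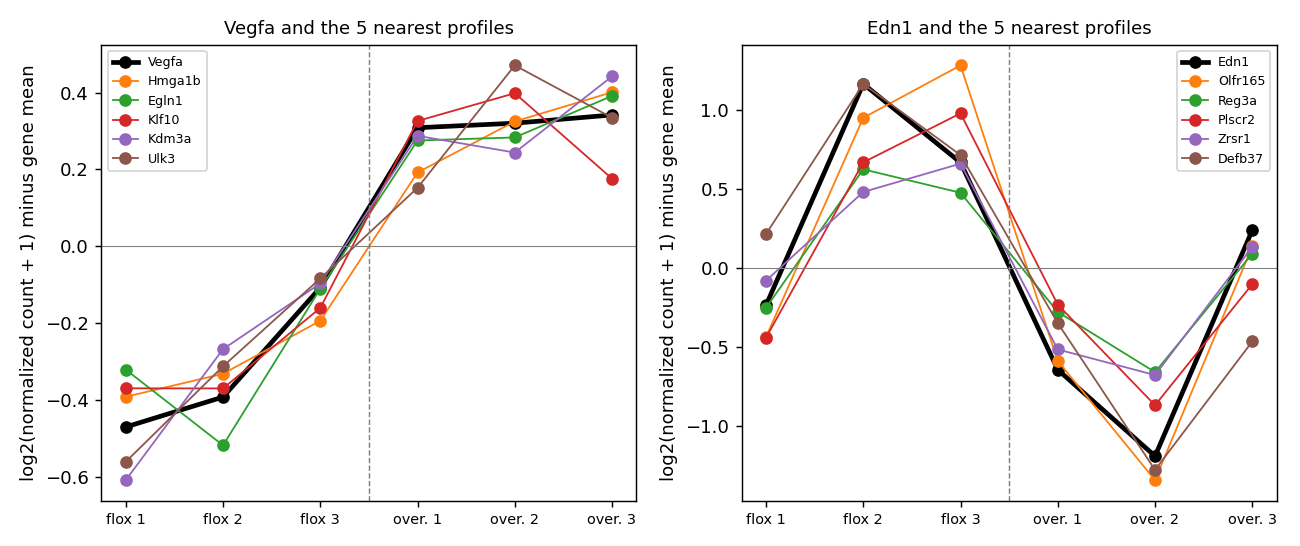
Log2(normalized count + 1) minus the gene's mean (y axis) in the 6 libraries (x axis, flox left and overexpression right of the dashed line) for Vegfa (left) and Edn1 (right) in black with their 5 nearest genes in colour. Lines only join the points of a gene, and the 5 genes differ from Vegfa by 0.076 to 0.10 but from Edn1 by 0.29 to 0.36 in root mean square.

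Markers of some other cell types are also in the table. Ms4a1, a surface protein of B cells, was at 23.7, 43.9 and 97.9 normalized counts in flox and 13.1, 19.2 and 6.99 in overexpression replicates 1, 2 and 3, without overlap of the groups. Of 4 tuft cell markers, Pou2f3 is in the table, with a log2 fold change of -1.07 (SE 0.43), and of 4 stem cell markers Lgr5, with -0.41 (SE 0.16). Dcn, 1 of 6 fibroblast markers, had -0.28 (SE 0.13), and none of these 4 genes passed edgeR's test. Acta1, 1 of 6 skeletal muscle markers, had 1.86 (SE 0.28, adjusted p = 0.0438 in edgeR's quasi-likelihood test). That test was fitted only to genes listed for a small p of the same contrast, so this p is not independent support. No marker of 10 of the 17 lists, among them T cells, myeloid cells, Paneth, goblet and enteroendocrine cells, is in the table. Their part in the Vegfa and Edn1 values was not tested.

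Vegfa kept a positive and Edn1 a negative log2 fold change in every setting tried, as the choice of the genes favors. For Vegfa it ran from 0.55 with TMM scaling over the listed genes to 0.76 without flox replicate 3. For Edn1 it ran from -0.70 with FPKM plus 1, where the added 1 shrinks the value, to -1.55 without overexpression replicate 3.

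**Figure D4:**
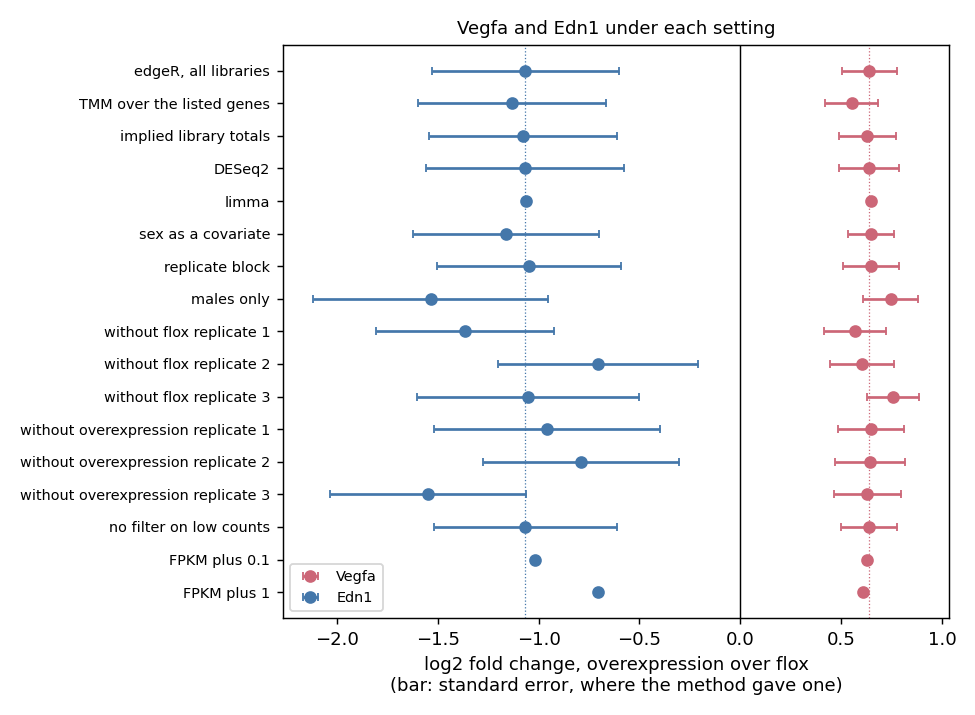
Log2 fold change of overexpression over flox mice (x axis) for Vegfa and Edn1 under each setting (y axis), with standard errors where the method gave one and dotted lines at the values from all 6 libraries. Vegfa stays between 0.55 and 0.76, and Edn1 moves between -1.55 and -0.70 over the settings.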

How the data were processed

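The authors aligned paired reads of 150 bases to GRCm38 with HISAT2 (2.0.5, also in the submitters' processing notes) and assigned fragments to genes with featureCounts. The deposited table gives these as raw counts. A normalized signal, also deposited and here called normalized counts, is the count over a DESeq2 size factor, and the authors added FPKM and group means. The deposited log2 fold change, p-value and adjusted p-value columns hold the authors' DESeq2 comparison. They were read only to learn that all 923 genes have a p under 0.05, that 785 hold an adjusted p below 1 (the other 138 have a mean of at most 4.16 normalized counts) and that 19204 genes were adjusted over.

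edgeR's quasi-likelihood test (edgeR 4.0.16, R 4.3.3) was fitted to the counts of the 785 genes, 3 libraries against 3, with the size factors that the deposited values imply and Benjamini-Hochberg adjustment over 19204 genes for the group term and over the 785 for the sex and interaction terms. The steps were tested on simulated data. Alternatives used TMM, implied library totals, DESeq2 (1.42.0), limma (3.58.1), sex or replicate number as covariate, males only, each library left out, no filter and FPKM with a pseudocount of 0.1 or 1. Replicates of a group differed beyond sampling noise and each library came from 1 mouse. The named genes were Vegfa, Edn1, the list genes in the table and the 5 nearest profiles each, without predicted genes, pseudogenes and immunoglobulin segments. Motifs and marker genes were named beside them. Results for some listed genes are not reported here. Members and lists were chosen with earlier results of these data known. Promoter sequences are from RefSeq (GRCm38.p6), where both genes matched, and exons, overlaps and shared 150-base windows from GENCODE M21 on the same build.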

Additional observations from a re-analysis of the deposited data

How the results depend on the processing

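The directions of the Vegfa and Edn1 differences were the same in all 16 other settings each, and the values moved by less than 1 SD between replicates. The sex and interaction differences kept their sign in the alternatives run, which left out no library for the interaction. With 1 female per group, their missing the threshold says nothing about stability. The count of genes called in the group difference, 22 with edgeR, was 73 with DESeq2 and 1 in males only. It ran from 4 to 13 when each library was left out. With the replicate number as a block it was 41, while Vegfa and Edn1 had log2 fold changes of 0.65 and -1.05. Same-numbered libraries of the groups deviated together only weakly, with correlations over 785 genes of 0.042, 0.026 and 0.062 for replicates 1, 2 and 3, although each library correlated best with its own number. The labels state no shared litter, so the numbers were not taken as pairs. The cause of these shifts in the count was not tested, and fewer libraries lower it by construction. Depth limits Edn1 more than Vegfa, at 34 to 215 against 1796 to 3252 fragments per library.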
